A study of Arabidopsis thaliana with 6 samples.

Results

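The plastid genome of Arabidopsis thaliana was examined through its genes other than those for ribosomal RNA (rRNA). They were taken from the deposited table as every gene whose AGI code, the systematic Arabidopsis gene number, starts with ATCG, minus the rRNA genes ATCG00920, ATCG00950, ATCG01180 and ATCG01210, which left 74 of 31276 listed genes. All 6 libraries were made from explants of the Col-0 accession, pieces of the hypocotyl (the stem of the embryo) excised at a seedling age of 1 week. A day 0 group of 3 biological replicates was taken at excision, and a day 7 group of 3 after 7 days on callus-inducing medium, on which cut tissue forms a mass of dividing cells. The tissue label reads callus for all 6 libraries, day 0 included. The replicates are described as biological, with no word on how many explants each holds or which shared a culture. Values are TPM, a length-corrected transcript level that keeps no sequencing depth, so the depth is unknown and no counting interval is given.

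Plastids carry a small genome of bacterial origin that encodes part of the photosynthetic apparatus and part of the machinery for plastid transcription, translation and protein turnover, while the nucleus encodes the rest. Plastid genes are read by a bacterial-type RNA polymerase whose core is plastid-encoded, which works with nucleus-encoded sigma factors, and by phage-type polymerases from the nucleus. Many of them lie in clusters that are transcribed together, and plastid mRNA carries no stable poly(A) tail of the nuclear kind. AGI codes run along the chromosome, but the listed codes skip some numbers. Neighbouring listed codes are therefore not always side by side.

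Names from the annotation are given here for 6 of the 74 codes, and the others are given by code alone, with no role. The 6 are ATCG00420 (ndhJ) and ATCG00430 (ndhK), subunits of the plastid NAD(P)H dehydrogenase-like complex of photosynthetic electron flow; ATCG00530 (cemA), a protein of the plastid envelope; ATCG00660 (rpl20) and ATCG01310 (rpl2), proteins of the large ribosomal subunit; and ATCG00670 (clpP), the plastid-encoded proteolytic subunit of the Clp protease. The code of each was read from the RefSeq note on a related nuclear gene or pseudogene, whose sequence was then matched to the plastid gene. The note calls ATCG00430 by a name of photosystem II, whereas the sequence match was ndhK, with 47.6% identity over 143 residues.

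The day 0 and day 7 tissues differed in their nuclear markers. Of the photosynthetic tissue markers, LHB1B2 and LHCB2.1, light-harvesting proteins of photosystem II, went from means of 133 and 34.7 TPM to 16.9 and 0.290 TPM, PSAL of photosystem I from 39.8 to 0.973 TPM, and RBCS3B, a Rubisco small subunit, was listed at 0 in each day 7 library. Of the root tip and callus markers, PLT1 rose from 2.48 to 75.6 TPM, PLT2 from 2.56 to 22.5 TPM and the peptide gene RGF3 from 1.78 to 153 TPM, while WOX5 stood at 17.6 and 16.1 TPM. The libraries also differed in their total scale. Values are given in the order of replicates 1, 2 and 3 throughout. At day 0, nuclear rRNA took 18.0%, 4.19% and 12.1% of the TPM of a library, and at day 7 it took 38.9%, 8.44% and 25.3%. Replicate 2 was lowest and replicate 1 highest in both groups.

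The summed level of the 74 plastid genes did not separate the groups. The day 0 libraries gave 1351, 1147 and 1351 TPM and the day 7 libraries 1351, 213 and 669 TPM (exact two-sided permutation p = 0.2, where 3 against 3 libraries cannot go below 0.1). Without ATCG00020, the most abundant of them, the sums were 884, 936 and 1087 TPM in the day 0 libraries and 1337, 211 and 663 TPM in the day 7 libraries (exact permutation p = 0.6). Day 7 replicate 1 then lay above all 3 day 0 libraries and day 7 replicate 2 far below them. In bulk tissue, fewer plastids or plastid-bearing cells and less RNA in each cannot be told apart.

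The 3 day 7 libraries differed from each other far more in plastid genes than in others, and in one order. Of the 71 plastid genes that could be tested, 66 were lowest in day 7 replicate 2, which is 93.0%, whereas 1.64% of the other tested genes were lowest there. Day 7 replicate 1 was the highest of the 3 for 66 of the 71. Over the 57 plastid genes above 0 in each library, the highest day 0 value was a median of 1.81 times the lowest, and the highest day 7 value 6.38 times the lowest, with the day 7 ratio the larger for 57 of 57. The other 17738 genes had medians of 1.68 and 2.23. The share of nuclear rRNA ordered the day 7 libraries in the same way. On the TPM scale the typical gene stood highest in day 7 replicate 2, with median-of-ratios size factors of 0.711, 1.57 and 0.978. The 1.64% is therefore not a neutral reference. The part of nuclear rRNA in it and in the plastid spread was not tested.

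Mitochondrial genes, read from the other organelle genome, ordered the day 7 libraries in the same way. The 9 mitochondrial genes listed include a pair that held nearly all of their TPM, and the other 7 served as the reference. These 7 summed to 64.5, 49.3 and 67.5 TPM at day 0, against 299, 61.3 and 199 TPM at day 7 (exact two-sided permutation p = 0.3). The 74 plastid genes gave 20.9, 23.3 and 20.0 TPM per mitochondrial TPM at day 0, and 4.51, 3.47 and 3.37 at day 7. The groups did not overlap, and the day 7 mean was 5.66-fold lower (exact permutation p = 0.1, the smallest these libraries can give). Without ATCG00020 the ratio was 4.33-fold lower, with the same p. The ratio was chosen as a measure after the values were seen; its numerator overlapped between the groups, so it moved with the mitochondrial sum as well as with the plastid one.

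**Figure D1:**
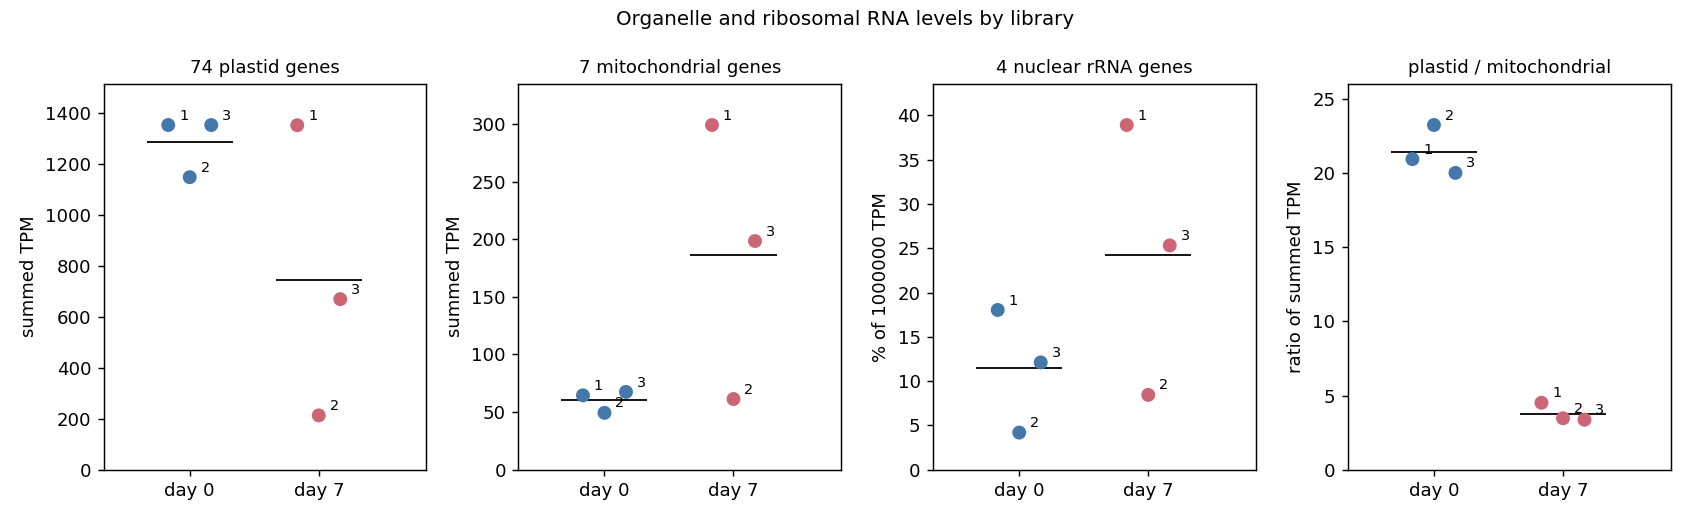
From left to right, the summed TPM of the 74 plastid genes and of 7 mitochondrial genes, the percent of all TPM in nuclear rRNA, and the plastid to mitochondrial ratio; points are single libraries with their replicate number, and lines are group means. The plastid sums overlap between day 0 and day 7, whereas the ratio is 20.0 to 23.3 at day 0 and 3.37 to 4.51 at day 7.

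Most plastid genes did not pass the test, and those that passed were lower at day 7 with the exception of ATCG01000. Genes with at least 1 TPM in at least 3 libraries were tested by limma-trend on log2(TPM + 1), and those with a Benjamini-Hochberg adjusted p below 0.05 over all 18608 tested genes were called. Of the 71 plastid genes tested, 22 were called lower at day 7 (31.0%, against 16.2% of all tested genes), 1 was called higher (13.4% of all tested genes) and 48 were not called. The log2 differences had a median of -0.46 in the plastid genes and 0.05 in all tested genes. Among the 22 the log2 differences ran from -0.77 to -5.59, and the folds of group means from 1.77 to 44.9. Of the 48 not called, 31 had a higher and 17 a lower mean TPM at day 7, with log2 differences from -1.07 to 1.04. By the raw values, 15 of the 71 lay lower in each day 7 library than in any day 0 library (19.5% of all tested genes), 0 lay higher in that way (19.3% of all tested genes; limma-trend called 1 of the 71 higher), and 56 overlapped. The 15 were all among the 22 called.

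The count of falls depended on the scale and on single libraries. It was 9 with the libraries scaled by median of ratios (33.8% of all tested genes were then called lower) and 7 after rescaling to the nuclear protein-coding genes (21% of all tested genes), which moved the median log2 difference of all genes from 0.05 to 0.42. On these scales limma called 0 plastid genes higher, against 31.1% and 49.6% of all tested genes, with 0 also at an unadjusted p below 0.05. With each gene judged by its own variance rather than one drawn to the common trend, 2 were called lower, ATCG00020 and ATCG00470 (6.83% of all tested genes), and 0 higher (4.2% of all tested genes; 0 also at an unadjusted p below 0.05). Without day 7 replicate 2 the count was 14 lower (27.2% of all tested genes) and 16 higher (10% of all tested genes), and without day 0 replicate 3 it was 13 lower (7.65% of all tested genes) and 2 higher (7.68% of all tested genes). Without day 7 replicate 1, 32 were called lower (14% of all tested genes) and 0 higher by the same limma test (17.4% of all tested genes), with 0 also at an unadjusted p below 0.05. ATCG00020 was the one gene called lower under both scalings, the variance of its own, the replicate block and each omission of a library.

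**Figure D2:**
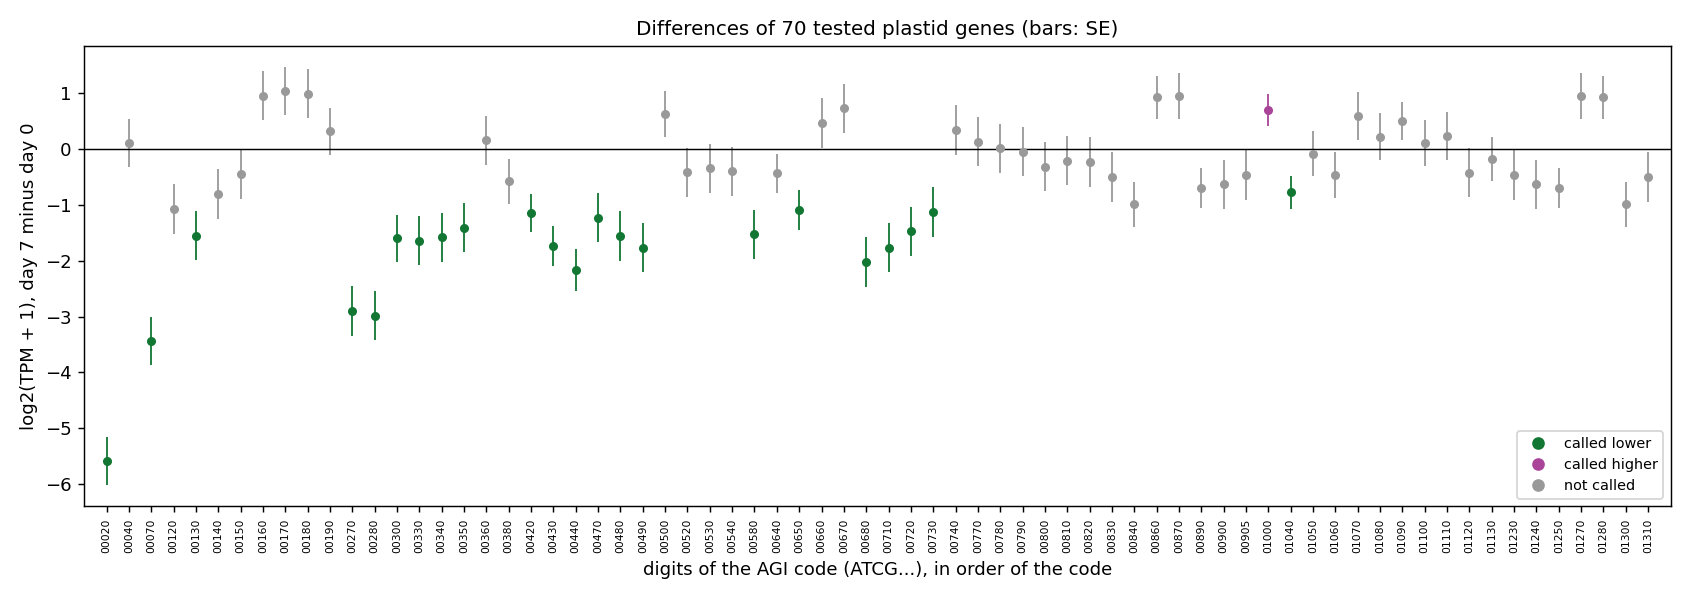
Log2 difference of day 7 minus day 0 on the log2(TPM + 1) scale for 70 of the 71 tested plastid genes, in the order of their codes, with limma standard errors; colour shows the call. The calls below 0 include neighbouring codes, and the farthest is ATCG00020 at -5.59.

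ATCG00020 was the most abundant plastid gene at day 0 and fell the most. It stood at 468, 211 and 265 TPM in the day 0 libraries and at 13.8, 1.3 and 5.95 TPM in the day 7 libraries. The groups lay far apart, with the highest day 7 value far under the lowest day 0 value. The mean fell 44.9-fold, a log2 difference of -5.59 ± 0.44 (limma-trend SE, n = 3 each, adjusted p = 2.05e-35). With ATCG00020 judged by its own variance, the adjusted p of the linear fit was 0.0359. Within the 74 genes it held 34.6%, 18.4% and 19.6% of the TPM at day 0 and 1.02%, 0.611% and 0.890% at day 7, a 28.8-fold lower mean share (exact permutation p = 0.1). Per mitochondrial TPM it was 159-fold lower. The first place among the plastid genes went at day 7 to ATCG00790 in replicates 1 and 2, with 5.46% and 6.97% of the plastid TPM, and to ATCG00780 in replicate 3, with 5.97%.

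The 4 next largest called falls were in ATCG00070, ATCG00280, ATCG00270 and ATCG00440. ATCG00070 stood at 15.5, 30.8 and 19.8 TPM at day 0 and at 7.68, 0 and 0 TPM at day 7, a log2 difference of -3.43 ± 0.43 (SE, adjusted p = 3.77e-14). In this gene a value remained in day 7 replicate 1 and none was listed in the other two. ATCG00280 stood at 67.3, 32.5 and 57.9 TPM at day 0 and at 12.3, 1.73 and 6.50 TPM at day 7, a log2 difference of -2.98 ± 0.44 (SE, adjusted p = 3.13e-10). Its neighbour ATCG00270 went from 35.2, 28.1 and 37.5 TPM to 8.09, 1.3 and 3.71 TPM, a log2 difference of -2.89 ± 0.45 (SE, adjusted p = 1.38e-09). Both fell 7.67-fold to 7.69-fold in mean TPM, with no overlap between the groups. ATCG00440 went from 5.81, 8.11 and 6.99 TPM to 2.43, 0 and 0.58 TPM, a log2 difference of -2.17 ± 0.38 (SE, adjusted p = 1.14e-07), at levels near the 1 TPM limit at day 7. These 4 and ATCG00020 were also called lower under both scalings. With each gene judged by its own variance, the 4 were not called (linear fit, adjusted p from 0.0602 to 0.130), whereas ATCG00020 was.

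Both named subunits of the NAD(P)H dehydrogenase-like complex were called lower, at low levels. ndhK (ATCG00430) stood at 5.17, 3.56 and 5.94 TPM at day 0 and at 1.15, 1.45 and 0 TPM at day 7, without overlap. Its log2 difference was -1.74 ± 0.36 (SE, adjusted p = 1.33e-05). ndhJ (ATCG00420) stood at 1.72, 3.99 and 3.85 TPM at day 0 and at 2.05, 0.98 and 0 TPM at day 7. Day 7 replicate 1 lay above day 0 replicate 1, so the groups overlapped, and the log2 difference was -1.15 ± 0.34 (SE, adjusted p = 0.00419). The call on ndhJ was lost after median-of-ratios scaling (adjusted p = 0.0540) and after rescaling to nuclear protein-coding genes (adjusted p = 0.124). ATCG00440 is the next code after these and was called as well, so the 3 codes from ATCG00420 to ATCG00440 were all called lower.

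The other 4 named genes were not called. clpP stood at 9.98, 8.63 and 16.3 TPM at day 0 and at 45.7, 9.17 and 16.8 TPM at day 7, a log2 difference of 0.73 ± 0.44 (SE, adjusted p = 0.217). rpl20 stood at 6.76, 9.38 and 17.9 TPM at day 0 and at 41.9, 3.40 and 20.3 TPM at day 7 (log2 difference 0.47 ± 0.45, SE, adjusted p = 0.470). In these genes day 7 replicate 1 was the highest of the 6 libraries, replicate 3 lay above the top of day 0, and replicate 2 lay within or below the day 0 range. Without day 7 replicate 2 both were called higher, with log2 differences of 1.23 for clpP (adjusted p = 0.00394) and 1.39 for rpl20 (adjusted p = 9.69e-04).

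cemA and rpl2 gave values in both directions around day 0. cemA stood at 6.21, 14.2 and 9.09 TPM at day 0 and at 15.8, 2.55 and 8.08 TPM at day 7 (log2 difference -0.34 ± 0.44, SE, adjusted p = 0.610). rpl2 stood at 10.02, 11.4 and 11.8 TPM at day 0 and at 16.4, 2.57 and 9.05 TPM at day 7 (log2 difference -0.50 ± 0.44, SE, adjusted p = 0.436). In both, day 7 replicate 1 was above and day 7 replicate 2 below each day 0 library. Per mitochondrial TPM, clpP and rpl20 were 1.48-fold and 1.88-fold lower at day 7, against a median of 3.84-fold over the plastid genes.

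**Figure D3:**
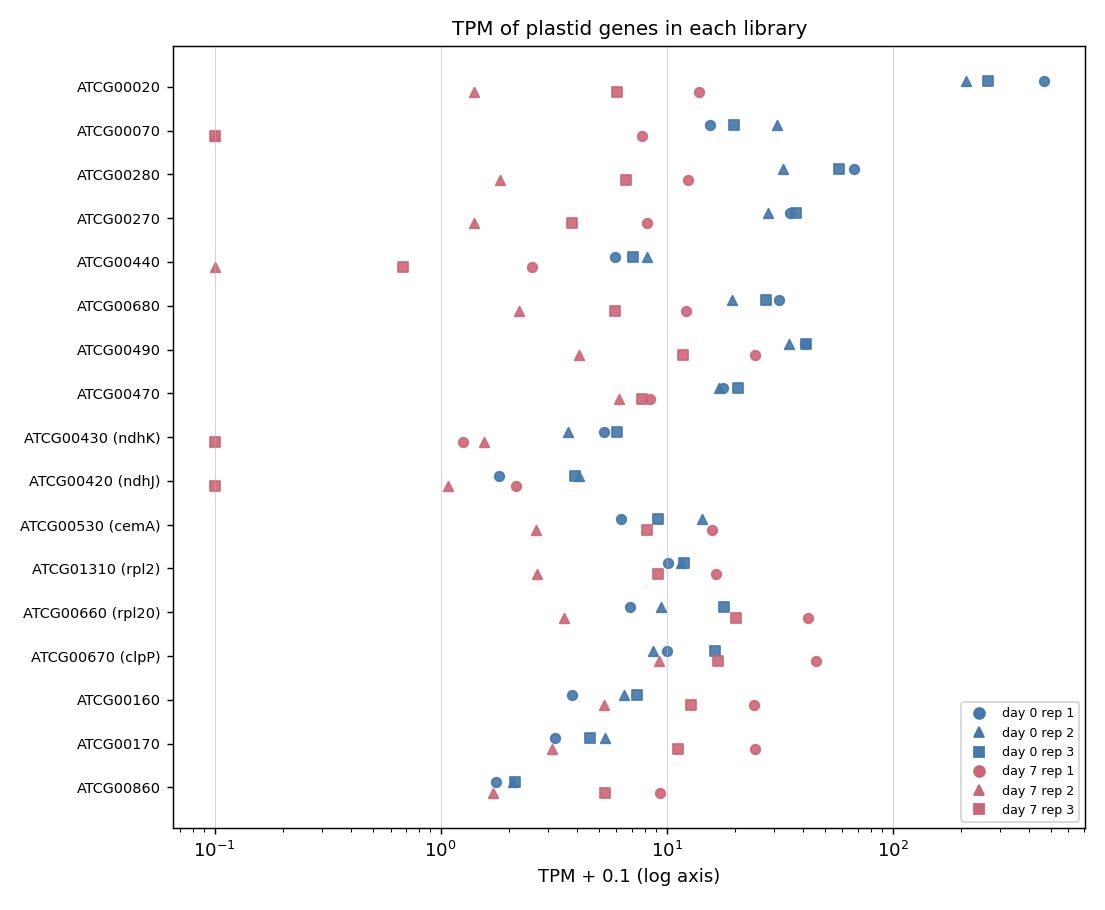
TPM + 0.1 on a log axis for the 6 named plastid genes and 11 other codes, with the largest called falls at the top; points are single libraries, and 0.1 marks a listed 0. ATCG00020 drops from 211 to 468 TPM at day 0 to at most 13.8 TPM at day 7, whereas clpP and rpl20 overlap between the groups.

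Set against the mitochondrial genes, plastid genes moved down far more widely than on the deposited scale. Per mitochondrial TPM, 51 of the 71 lay lower in each day 7 library than in any day 0 library (71.8%, against 18.9% of all tested genes) and 0 lay higher (2.1% of all tested genes). The mean was lower at day 7 for 70 of the 71, with ATCG01000 the exception at 0.880-fold. The median fold was 3.84 for the plastid genes and 1.60 for all tested genes. On this scale the spread within day 7 shrank: the highest of the 3 libraries was a median of 1.66 times the lowest, close to the 1.61 of day 0. Small differences were found for ATCG00860 at 1.15-fold, ATCG00170 at 1.19-fold and ATCG00160 at 1.29-fold lower, among others. The mitochondrial sum, 299, 61.3 and 199 TPM at day 7, ordered those libraries as most plastid genes did. The median-of-ratios size factors, which follow the typical gene, ran the other way, at 0.711, 1.57 and 0.978. Dividing by that sum therefore narrows the plastid spread within day 7 and tends to widen that of other genes. The 71.8% and 18.9% are thus not on an even footing.

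Neighbouring codes, meaning consecutive codes among those tested, had similar differences. Between adjacent tested codes, with genes of identical values counted once, the log2 differences were a median of 0.42 apart over 63 pairs, whereas all 2016 pairs of tested plastid genes were a median of 1.04 apart. Genes that lie side by side can share transcripts, and where they overlap they can share reads, and how the authors divided such reads is not stated. The runs of codes described next were picked after the values were seen and are given without a test of the run.

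All 3 codes from ATCG00270 to ATCG00300 were called lower, with log2 differences from -1.60 to -2.98. Together they summed to 112, 72.0 and 104 TPM at day 0, against 27.4, 3.03 and 15.1 TPM at day 7, so the highest day 7 library lay under the lowest day 0 library. All 3 codes from ATCG00330 to ATCG00350 were called lower as well, with sums of 131, 96.6 and 112 TPM at day 0 and 92.6, 9.83 and 47.8 TPM at day 7. Here day 7 replicate 1 came close to the lowest day 0 library. ATCG00350 by itself overlapped between the groups.

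The 3 codes from ATCG00470 to ATCG00490 were called lower too, with log2 differences from -1.22 to -1.77. ATCG00470 stood at 17.7, 16.9 and 20.7 TPM at day 0 and at 8.32, 6.04 and 7.68 TPM at day 7, a log2 difference of -1.22 ± 0.45 (SE, adjusted p = 0.0235). Its day 7 libraries were close together, unlike those of most plastid genes. ATCG00490 stood at 40.9, 34.9 and 41.1 TPM at day 0 and at 24.4, 3.98 and 11.7 TPM at day 7, a log2 difference of -1.77 ± 0.44 (SE, adjusted p = 4.16e-04). As a share of the plastid TPM it was nearly the same in all libraries of a group, 3.03%, 3.04% and 3.04% at day 0 and 1.81%, 1.87% and 1.75% at day 7.

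The 4 codes from ATCG00680 to ATCG00730 were called lower, with log2 differences from -1.12 to -2.02. They summed to 127, 86.5 and 93.9 TPM at day 0, against 50.3, 22.6 and 40.9 TPM at day 7. ATCG00710 had a pattern of its own among them, with 35.5, 23.7 and 3.79 TPM at day 0 and 0, 12.5 and 7.13 TPM at day 7. It was the highest of the day 7 libraries in replicate 2 and listed at 0 in replicate 1, the reverse of most plastid genes, and its groups overlapped. Of the other called codes outside these runs, ATCG00130 did not overlap between the groups, and ATCG00580, ATCG00650 and ATCG01040 did.

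In other runs no code was called, and the day 7 libraries spread widely around the day 0 level. The 4 codes from ATCG00160 to ATCG00190 summed to 13.4, 23.5 and 22.0 TPM at day 0, against 87.1, 14.8 and 40.9 TPM at day 7. Day 7 replicates 1 and 3 were above each day 0 library and replicate 2 was within their range. Their log2 differences were 0.32 to 1.04, with adjusted p from 0.0537 to 0.619. ATCG00170 had the largest of them, with 3.10, 5.25 and 4.48 TPM at day 0 and 24.4, 3.00 and 11.1 TPM at day 7 (log2 difference 1.04 ± 0.43, SE, adjusted p = 0.0537).

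The 6 codes from ATCG00770 to ATCG00820 held the most TPM at day 7 of the runs described. They summed to 93.5, 158 and 204 TPM at day 0, against 318, 48.2 and 168 TPM at day 7, and none was called by limma, with log2 differences from -0.31 to 0.13 and adjusted p from 0.644 to 0.980. ATCG00790, the highest at day 7, stood at 26.6, 26.0 and 51.6 TPM at day 0 and at 73.7, 14.8 and 29.4 TPM at day 7. The 7 codes from ATCG01050 to ATCG01110 were likewise not called, with sums of 24.6, 33.0 and 36.9 TPM at day 0 and 85.6, 9.40 and 39.2 TPM at day 7.

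Shares within the plastid genes, which do not depend on the scale of a library, shifted between the groups. Of the 74 genes, 13 had a lower share in each day 7 library than in any day 0 library (17.6%), 29 had a higher one (39.2%), and 32 overlapped. The shares of a library sum to its whole plastid TPM, so the large loss of ATCG00020 by itself raises the others. Over the 73 genes without it, 15 were lower, 23 higher and 35 overlapped. The 13 with a lower share were all among the 22 called lower, and none of the 29 with a higher share was called. The largest rises in mean share without overlap were 4.99-fold for ATCG00860 and its identical partner ATCG01280, 4.79-fold for ATCG00170, 4.52-fold for ATCG00180 and 4.45-fold for ATCG00160.

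Among the named genes clpP had a higher share at day 7 with or without ATCG00020 in the total, whereas the separation of rpl20 and rpl2 was lost without it. clpP held 0.738%, 0.753% and 1.21% of the plastid TPM at day 0 and 3.38%, 4.31% and 2.51% at day 7, a 3.78-fold higher mean. rpl20 held 0.500%, 0.818% and 1.32% at day 0 and 3.11%, 1.60% and 3.03% at day 7, with no overlap. For rpl2 the mean share was 1.45-fold higher, also without overlap, the smallest fold of the 29. Over the 73 genes without ATCG00020 both overlapped between the groups, and the mean share of rpl2 was 1.15% at day 0 and 1.27% at day 7. The shares of cemA, ndhJ and ndhK overlapped between the groups.

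Some runs of codes differed in share between the groups and others overlapped. The 6 codes from ATCG00770 to ATCG00820 held 6.92%, 13.8% and 15.1% at day 0, and 23.6%, 22.7% and 25.1% at day 7. The 4 codes from ATCG00160 to ATCG00190 held 0.993%, 2.05% and 1.62% at day 0, and 6.45%, 6.94% and 6.11% at day 7. The 3 codes from ATCG00270 to ATCG00300 held 8.29%, 6.28% and 7.72% at day 0, and 2.03%, 1.42% and 2.26% at day 7. In these 3 runs the day 7 libraries lay close together, although their summed plastid TPM differed from 213 to 1351. The codes from ATCG00330 to ATCG00350 and from ATCG01050 to ATCG01110 also did not overlap in share. The codes from ATCG00680 to ATCG00730 overlapped, with 9.38%, 7.55% and 6.95% at day 0 and 3.72%, 10.6% and 6.11% at day 7. Those from ATCG00470 to ATCG00490 overlapped as well, with 5.61%, 6.14% and 6.27% at day 0 and 3.28%, 5.84% and 3.95% at day 7. The low-level codes from ATCG00420 to ATCG00440 held 0.940%, 1.37% and 1.24% at day 0 and 0.417%, 1.14% and 0.0867% at day 7, again with overlap.

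**Figure D4:**
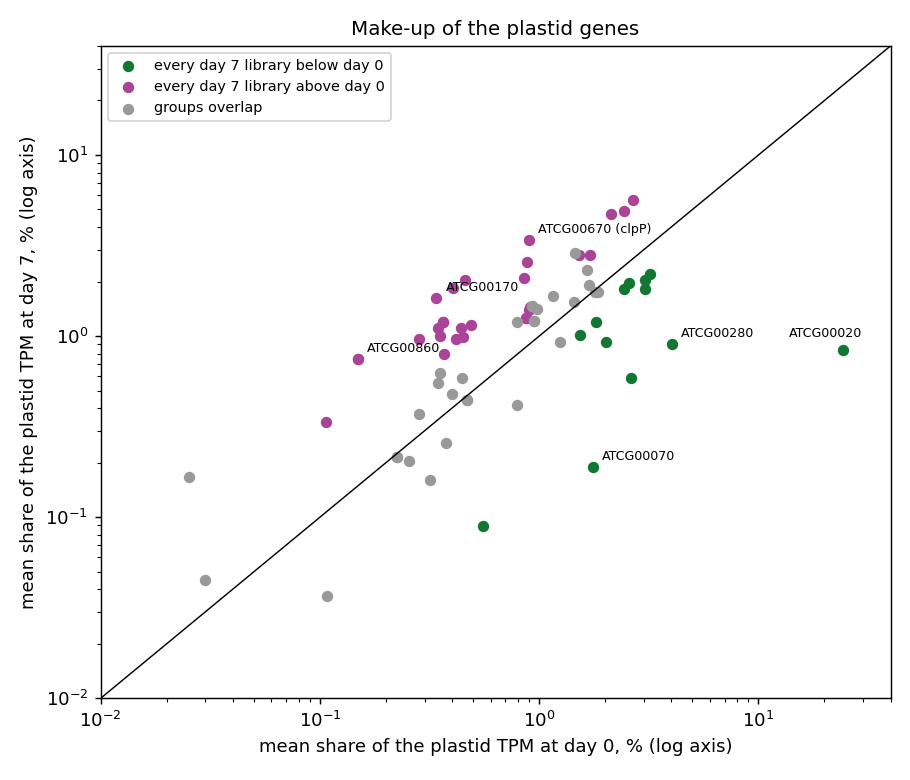
Mean share of the plastid TPM held by each gene at day 7 against day 0, in percent on log axes, with the diagonal of equal shares; genes whose mean share is 0 in a group and 1 gene not reported are not drawn, and colour shows whether the 3 libraries of the groups overlap. ATCG00020 lies far below the diagonal, at 24.2% and 0.841%.

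The set holds 7 pairs of codes with identical values in each library, which leaves 67 distinct profiles. The RefSeq plastid annotation lists 7 gene symbols at more than 1 locus, rpl2 among them, and how the authors counted reads that fit both copies is not stated, so the level of each copy is uncertain. The pairs are ATCG00830 with ATCG01310, ATCG00840 with ATCG01300, ATCG00860 with ATCG01280, ATCG00870 with ATCG01270, ATCG00890 with ATCG01250, ATCG00900 with ATCG01240, and ATCG00905 with ATCG01230. None of them was called, so the 22 called lower are 22 distinct profiles of 64 tested. ATCG00840 and ATCG00860 came nearest to the threshold, in opposite directions, with log2 differences of -0.98 ± 0.40 (SE, adjusted p = 0.0506) and 0.93 ± 0.39 (SE, adjusted p = 0.0515).

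Some plastid genes were near 0 or stood apart, and 57 of the 71 tested were above 0 in each library. Among the codes called lower, a 0 was listed in at least 1 day 7 library for ATCG00070, ATCG00300, ATCG00420, ATCG00430, ATCG00440, ATCG00580, ATCG00650, ATCG00710 and ATCG01040. ATCG01000, the one code called higher, stood at 1.02, 0 and 0 TPM at day 0 and at 1.36, 0.01 and 2.63 TPM at day 7 (log2 difference 0.70 ± 0.29, SE, adjusted p = 0.0497), with overlap between the groups and a call that did not hold under either scaling. Of the 3 codes not tested, ATCG00050 was listed at 0 in each library, ATCG01010 lay between 0.07 and 0.52 TPM, and ATCG01020 was listed at 29.2 TPM in day 0 replicate 2 and at 0 in the others. In day 7 replicate 2, 8 of the 71 tested plastid genes were listed at 0.

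The plastid rRNA that was set aside fell more than the sum of the genes examined, though less than ATCG00020. Its mean TPM was 11.3-fold lower at day 7, against 1.72-fold for the 74 genes and 44.9-fold for ATCG00020. The 4 rRNA genes gave 15.1, 5.74 and 10.4 TPM per TPM of the 74 plastid genes at day 0, and 1.32, 2.19 and 2.08 at day 7 (exact permutation p = 0.1). The groups did not overlap, and day 0 replicate 2 was the lowest of its group.

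The nuclear genes that serve plastid transcription were followed as a list of 21, chosen with earlier results of these data known: 2 phage-type polymerases, 6 sigma factors and 13 proteins associated with the plastid-encoded polymerase or related to them. Of the 20 tested, 1 was called higher and 1 lower, against 13.4% and 16.2% of all tested genes. SIGE (AT5G24120), the sigma factor also known as SIG5, stood at 4.80, 3.93 and 5.28 TPM at day 0 and at 6.88, 25.4 and 9.58 TPM at day 7, a log2 difference of 1.20 ± 0.44 (SE, adjusted p = 0.0241). Each day 7 library of SIGE lay above day 0. Replicate 2 was the highest day 7 library in every tested gene of the list, unlike in most plastid genes. FLN1 (AT3G54090), a fructokinase-like protein of the polymerase complex, stood at 9.90, 11.03 and 10.5 TPM at day 0 and at 3.87, 5.09 and 4.06 TPM at day 7, a log2 difference of -1.11 (adjusted p = 0.0387), with no overlap.

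The polymerases themselves were not called. SCA3 (AT2G24120), the phage-type polymerase of the plastid, stood at 3.27, 7.82 and 5.03 TPM at day 0 and at 6.64, 13.3 and 10.8 TPM at day 7 (log2 difference 0.83, adjusted p = 0.143). After median-of-ratios scaling it was called higher, at a log2 difference of 0.78 (adjusted p = 0.00418), as were 31.1% of all tested genes. AT5G15700, a second gene of the polymerase family, had a log2 difference of 0.13 (adjusted p = 0.865), and the sigma factor SIG2 one of 0.07 (adjusted p = 0.924). The list's counts depended on the scale. Of the 20 tested, 5 were called higher and 8 lower after median-of-ratios scaling (31.1% and 33.8% of all tested genes). After rescaling to nuclear protein-coding genes 9 were called higher and 4 lower (49.6% and 21% of all tested genes). Without any one day 0 library, or without day 7 replicate 3, 0 were called by limma-trend, and 1 to 4 passed an unadjusted p below 0.05. In these fits 2703 to 3444 of all tested genes were called.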

How the data were processed

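The authors deposited TPM values per gene and library, rounded to 2 decimals; per the submitters' processing notes STAR 2.7.10a, RSEM 1.3.1 and the build TAIR10 were used, with no role or annotation version given. Per the labels, a TruSeq RNA kit was used on total RNA; mRNA selection, rRNA removal and strand are not given in the sources used here, so antisense reads cannot be told apart. All 6 value columns were used. TPM carries no depth.

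Genes reaching 1 TPM in 3 or more libraries (18608) were tested by limma-trend (limma 3.58.1, R 4.3.3) on log2(TPM + 1), with group as the one term and Benjamini-Hochberg adjustment over all of them, and called at adjusted p below 0.05. The fit was tried on simulated data with the same noise for every gene. That noise does not copy the wide day 7 spread of the plastid genes, so the simulation does not bear on their calls. Folds are ratios of mean TPM; log2 differences are on the log2(TPM + 1) scale and understate changes of low genes. P-values refer to these libraries only. Standard errors and p-values of limma-trend draw each gene's variance to a trend over all genes. They therefore do not measure the spread of that gene's own replicates alone. Sums and ratios were compared by exact two-sided permutation. Alternatives were other scalings, pseudocounts, filters, variances, a replicate block and omission of each library; the identical pairs counted once, the mitochondrial ratio and the sums and shares without ATCG00020 were added after the data were seen. Tables used Python 3.11.15, pandas 2.3.3, numpy 2.4.6, scipy 1.17.1 and matplotlib 3.10.9.

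The members and lists were chosen with earlier results of these data known. RefSeq (TAIR10.1, used for names only) links few plastid codes to names through its notes, of which 6 are given here, matched by BLAST+ 2.17.0. The planned naming rule by functional group, and the planned shares of functional groups, were therefore not used. In their place values are given for the 6 named genes, the 5 highest mean TPM, the 5 largest called falls, the called rise and neighbouring codes (1 gene, counted among the 74, is not reported here); this choice was made after the values were seen. From the nuclear list the 2 called members, both polymerases and SIG2 are named.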

Additional observations from a re-analysis of the deposited data

How the results depend on the processing

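The summed plastid level kept its direction, lower at day 7, under each alternative tried, with exact permutation p from 0.2 to 0.9. Its ratio to the mitochondrial genes, a different measure, was also lower (exact permutation p = 0.1). The 22 plastid genes called lower and 1 called higher (limma-trend) became 9 and 0 after median-of-ratios scaling, 7 and 0 after nuclear protein-coding scaling, and 2 and 0 with unmoderated variances; at an unadjusted p below 0.05 the counts lower were 12, 8 and 8 and those higher 0. The count higher was 3 with a pseudocount of 0.1 or of 5, and 0 without a filter or with a minimum of 5 TPM. Leaving out 1 library at a time gave 13 to 32 lower, 0 to 16 higher and 15 to 32 in either direction. The nuclear plastid-transcription list, with 1 higher and 1 lower, gave 5 and 8 (13 in all) after median-of-ratios scaling, 9 and 4 (13 in all) after nuclear protein-coding scaling, 0 and 1 with unmoderated variances (1 in all), 0 and 0 without a filter (1 and 3 at an unadjusted p below 0.05), and 2 lower with a pseudocount of 0.1; without 1 library it gave 0 to 2 higher, 0 to 5 lower and 0 to 5 in all. Of all tested genes, 31.1% were called higher and 33.8% lower after median-of-ratios scaling, and 49.6% and 21% after nuclear protein-coding scaling. With unmoderated variances these shares were 4.2% and 6.83%. In either direction 6149 of 23496 were called without a filter, and 5443 of 18608 with a pseudocount of 0.1. The cause of these differences between settings was not tested.

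Over 15 plastid genes, settings that kept all libraries left 112 of 132 log2 differences with the same direction and call, 16 lost the call, and 4 turned, in genes not called. cemA went to 0.0362 and ATCG00790 to 0.357 after nuclear protein-coding scaling, and ATCG00780 to -0.0176 after median-of-ratios scaling, with the replicate block or without. Leaving out 1 library gave log2 differences from -0.86 to 0.26 for cemA, -0.25 to 1.39 for rpl20, -0.40 to 0.75 for ATCG00770, -0.55 to 0.83 for ATCG00780, -0.63 to 0.49 for ATCG00790 and -1.01 to 0.13 for rpl2.

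Replicate numbers are shared by the groups, and whether they pair the libraries was not settled. Gene by gene, the deviations of same-numbered libraries from their group means correlated at 0.097, 0.156 and 0.032 over 18608 genes. Replicate 2 was the one number whose libraries matched each other best. A shift common to all genes of a library drops out of such a correlation, so pairing through library scale was not tested. The median-of-ratios size factors ranked the replicate numbers alike in each group. They were 0.781, 1.23 and 0.987 for the day 0 libraries, against 0.711, 1.57 and 0.978 for day 7. With the replicate block 19 of the 71 tested plastid genes were called lower and 0 higher, or 16 and 0 together with median-of-ratios scaling. Of all 18608 tested genes, 10119 were called in either direction with the block, and 11996 with both. Without the block these counts were 5512 on the deposited scale and 12081 after median-of-ratios scaling. Of its 20 tested genes, the nuclear list gave 4 higher and 5 lower (9 in all) with the block, and 4 and 8 (12 in all) with both. These counts stand beside the same 10119 and 11996 of all tested genes. The planned shares of functional groups were not run. TPM gives no depth, so values near 0 carry no counting error and a listed 0 sets no limit.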
